A study of Arabidopsis thaliana with 6 samples.

Results

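GH3.3 and HAT2 are a pair of Arabidopsis genes known for a fast rise in transcript level after auxin, and their levels are described here across 6 arrays. GH3.3 (AT2G23170) encodes an enzyme that joins the auxin indole-3-acetic acid to amino acids. HAT2 (AT5G47370) encodes a homeodomain-leucine zipper transcription factor. They were chosen by name and probe set. Each is measured by 1 probe set, and together they make 2 of the 13513 probe sets listed for 1 gene, out of 22746 tested.

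Auxin acts by bringing Aux/IAA repressor proteins to F-box receptors of the TIR1/AFB type, which leads to breakdown of the repressors and frees auxin response factors to act on their target genes. The GH3, Aux/IAA and SAUR families hold many such targets, and GH3 enzymes of the group that GH3.3 belongs to lower the pool of free auxin, which closes a feedback loop. HAT2 belongs to class II of the homeodomain-leucine zipper family, whose members act mostly as repressors and respond to auxin and to shade.

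The samples were 9-day-old seedlings, taken after 8 h of treatment. Line HY213 was sampled after mock treatment and after estradiol, and wild-type seedlings after estradiol, with 2 arrays in each of the 3 groups. HY213 is read here as the pER22-AGL24 line of the design text, which carries the MADS-box gene AGL24 under the estradiol-inducible XVE system. It is a single line, and no array holds mock-treated wild type. The ecotype is labelled Columbia on all arrays but that of mock HY213 replicate 1. The replicates are independent pools of seedlings according to the design text.

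The induced gene was read first. AGL24 stood at 106 and 401 intensity units in estradiol-treated HY213, replicates 1 and 2, and at 4.60 to 5.05 on the other 4 arrays, under the highest Bacillus control probe set of each of those arrays (5.14 to 6.22). These controls match bacterial transcripts, and they serve here as a mark of background. The deposited values had array medians of 6.95 to 7.27. The arrays separated by replicate number along their first principal component (69.9% of the variance), so every group comparison is also given within each replicate number. Of the tissue markers, the leaf genes LHCB4.1 (908 to 1286) and PSAN (256 to 464) read above the Bacillus controls on all 6 arrays. The root-hair gene EXPA7 (9.99 to 23.2) did so too. No flower gene of the marker list had a probe set listed for it alone, which is what measured means below. The seed gene AT2G28490 read 11.0 in estradiol-treated HY213 replicate 2 and 4.43 to 4.97 on the other 5 arrays. Differences in the share of a tissue and in RNA per cell cannot be told apart in such whole-seedling samples.

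GH3.3 read 21.9 and 50.2 in mock-treated HY213, replicates 1 and 2, which average 36.1 ± 19.98 (SD, n = 2). It read 24.3 and 225 in HY213 under estradiol, averaging 125 ± 142 (SD, n = 2), and 35.4 and 249 in wild type under estradiol, averaging 142 ± 151 (SD, n = 2). The 2 highest values are those of the estradiol arrays of replicate 2, and all 3 groups overlap. Within each replicate, mock was lowest, estradiol-treated HY213 in the middle and estradiol-treated wild type highest.

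HAT2 read 34.9 and 61.4 in HY213 after mock treatment, averaging 48.2 ± 18.7 (SD, n = 2). It read 44.3 and 69.2 in HY213 under estradiol, averaging 56.7 ± 17.5 (SD, n = 2), and 40.0 and 100.1 in wild type under estradiol, averaging 70.0 ± 42.5 (SD, n = 2). The groups overlap here too. Mock was again lowest in both replicates, but the estradiol groups changed places, with HY213 above wild type in replicate 1 and below it in replicate 2.

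**Figure D1:**
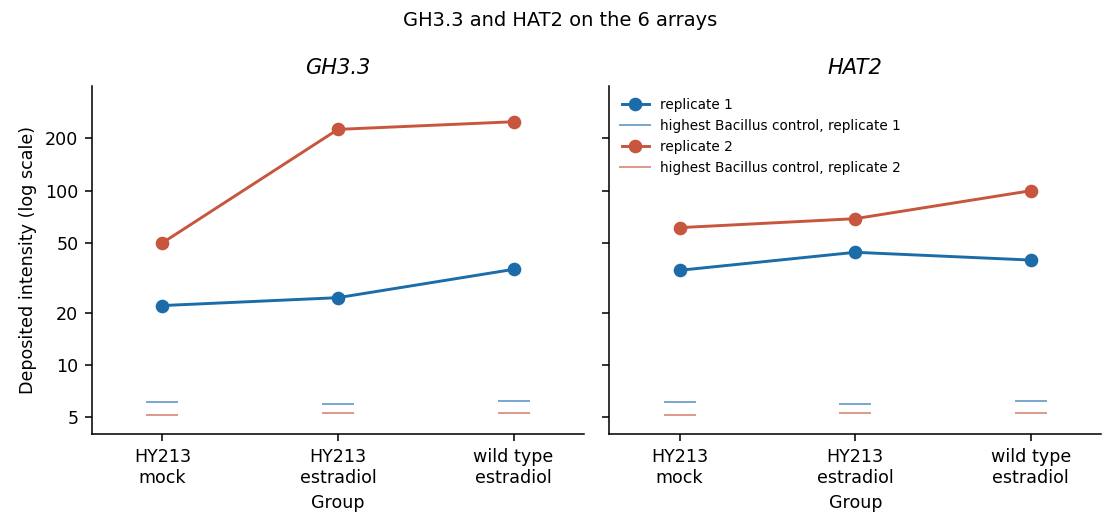
Deposited intensity (log axis) of GH3.3 and HAT2 by group, with one point for each array, lines joining the arrays of one replicate number, and short dashes for the highest Bacillus control of each array. All 3 replicate 2 arrays lie above all 3 replicate 1 arrays for both genes, and GH3.3 ranges from 21.9 to 249 where HAT2 ranges from 34.9 to 100.1.

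Both genes were well above background on all 6 arrays, GH3.3 at 3.56 to 47.2 times the highest Bacillus control and HAT2 at 5.67 to 19.0 times. Ranked within an array, GH3.3 moved from percentile 75.0 in mock replicate 1 to percentile 96.3 in wild-type replicate 2. HAT2 stayed between percentiles 81.2 and 90.7. Mock was the lowest of the 3 arrays within both replicates in 11.9% of all probe sets, so that order alone is common on this array.

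HY213 under estradiol was first set against its own mock control, a comparison that holds both the response to induced AGL24 and any response to the chemical. GH3.3 was 1.11-fold higher in replicate 1 and 4.48-fold higher in replicate 2. On the log2(value + 16) scale, where 16 is added to damp the noise of dim probe sets, the difference was 1.86 in replicate 2, and 0.0572% of probe sets had a higher one on those 2 arrays. In replicate 1 it was 0.089, and 12.8% of probe sets were higher. GH3.3 thus stood near the top of the array in replicate 2 and inside the bulk of it in replicate 1.

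HAT2 was 1.27-fold higher in replicate 1 and 1.13-fold higher in replicate 2. On the log2(value + 16) scale these differences were 0.24 and 0.14, with 3.02% and 7.63% of probe sets higher. The replicates gave HAT2 a similar small difference, while those of GH3.3 lay far apart. Being higher within both replicates by any amount is a weak mark, met by 25.6% of all probe sets. Neither gene was 1.5-fold higher within both replicates, as 0.145% of probe sets were.

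In limma over all 6 arrays the mean difference of GH3.3 was 0.98 ± 1.02 (SE) on the log2(value + 16) scale, with a 95% interval from -1.47 to 3.43 and an unadjusted p of 0.372. That of HAT2 was 0.19 ± 0.40 (SE), with an interval from -0.77 to 1.15 and an unadjusted p of 0.650. Neither passed an adjusted p of 0.05 (adjusted p 1 for both), nor did any of the 22746 probe sets (0.0%), and 1.2% had an unadjusted p under 0.05. In the model blocked by replicate number, the unadjusted p came to 0.0283 for GH3.3 and 0.282 for HAT2, the adjusted p was 0.998 for both, and 4.23% of probe sets had an unadjusted p under 0.05. Without the estradiol array of replicate 2 the mean difference was -0.31 for GH3.3 and -0.058 for HAT2, and without the mock array of replicate 1 it was -0.11 for HAT2. Such fits no longer balance the replicates, and within each replicate both genes read above mock.

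HY213 was next set against the wild type with both under estradiol, so that the line differs and the chemical does not. GH3.3 was lower in HY213 in both replicates, at 0.688 times the wild-type value in replicate 1 and 0.904 times in replicate 2. HAT2 was 1.11 times the wild-type value in replicate 1 and 0.691 times in replicate 2. GH3.3 therefore kept one direction and HAT2 did not. Being lower within both replicates by any amount was met by 25.4% of probe sets, and being 1.5-fold higher within both, which neither gene was, by 0.114%. AGL24 itself read 106 in HY213 against 5.05 in wild type in replicate 1 and 401 against 4.60 in replicate 2, and both wild-type values are at background.

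limma gave GH3.3 a difference of -0.24 ± 1.02 (SE) on the log2(value + 16) scale, with a 95% interval from -2.69 to 2.21 and an unadjusted p of 0.819. HAT2 differed by -0.17 ± 0.40 (SE), with an interval from -1.13 to 0.79 and an unadjusted p of 0.685. Neither passed (adjusted p 1 for both), 0.0% of probe sets did, and 0.774% had an unadjusted p under 0.05. With the replicate block the intervals narrowed to -1.09 to 0.60 for GH3.3 and -0.55 to 0.21 for HAT2, and 3.63% of probe sets had an unadjusted p under 0.05. A difference in either direction thus fits within the interval of each gene, and neither was shown to differ between the lines under estradiol. With 1 array left out, which unbalances the replicates, the mean difference went from -1.53 to 1.05 for GH3.3 and from -0.70 to 0.36 for HAT2.

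Wild type under estradiol against HY213 under mock treatment mixes the line with the chemical. Both genes had their widest mean difference here among the group comparisons. GH3.3 was 1.61-fold higher in replicate 1 and 4.96-fold higher in replicate 2, the only one of the 3 comparisons in which it passed 1.5-fold within both replicates. That pattern was met by 37 of 22746 probe sets (0.163%). HAT2 was 1.14-fold higher in replicate 1 and 1.63-fold higher in replicate 2, and was not among the 37. Higher within both replicates by any amount, as both genes were, were 24.0% of probe sets.

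On the log2(value + 16) scale GH3.3 differed by 0.44 in replicate 1 and by 2.001 in replicate 2, with 0.747% and 0.0220% of probe sets higher. HAT2 differed by 0.14 and 0.58, with 9.48% and 1.04% of probe sets higher. Both genes thus showed the larger difference in replicate 2, here for HAT2 as well as for GH3.3. The comparison shares its mock arrays with the first one and its wild-type arrays with the second, so the 3 are not separate evidence.

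**Figure D2:**
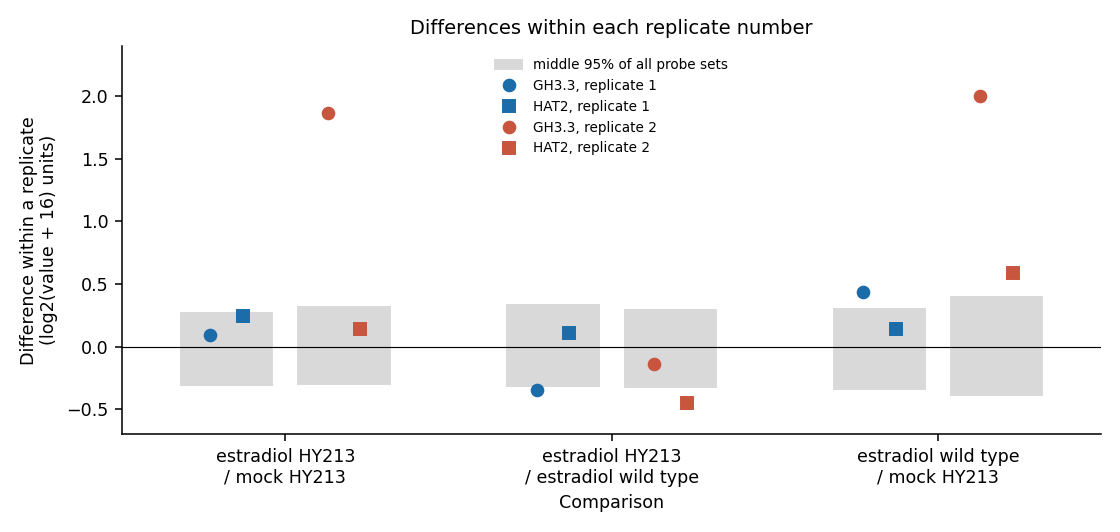
Difference on the log2(value + 16) scale within replicate 1 (blue) and replicate 2 (red) for GH3.3 (circles) and HAT2 (squares) in the 3 comparisons, with grey boxes for the middle 95% of all probe sets. GH3.3 lies far above the box in replicate 2 of both comparisons with mock (1.86 and 2.001). In replicate 1 it lies inside the box against mock for HY213 (0.089) and above the box for wild type (0.44).

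In limma the mean difference was 1.22 ± 1.02 (SE) for GH3.3, with a 95% interval from -1.23 to 3.67 and an unadjusted p of 0.273, and 0.36 ± 0.40 (SE) for HAT2, with an interval from -0.60 to 1.32 and an unadjusted p of 0.400. Neither passed (adjusted p 1 for both), 0.0% of probe sets did, and 1.18% had an unadjusted p under 0.05. With the replicate block the interval was 0.38 to 2.06 for GH3.3 and -0.02 to 0.74 for HAT2, the unadjusted p 0.0102 and 0.0606, and the adjusted p 0.85 for both, beside 5.34% of probe sets with an unadjusted p under 0.05. Without the wild-type array of replicate 2 the mean differences were 0.036 for GH3.3 and -0.17 for HAT2, again from unbalanced replicates.

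**Figure D3:**
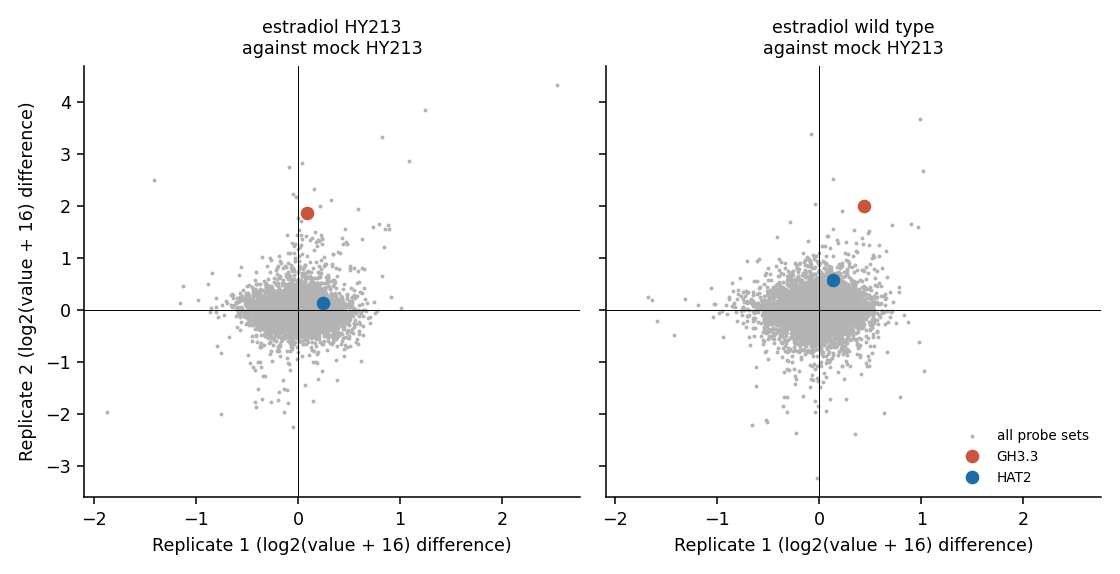
Difference on the log2(value + 16) scale in replicate 2 against that in replicate 1 for all 22746 probe sets (grey), GH3.3 (red) and HAT2 (blue), for each estradiol group against mock. GH3.3 lies high on the replicate 2 axis, at 1.86 and 2.001, and much lower on the replicate 1 axis, at 0.089 and 0.44. For HY213, HAT2 lies inside the middle 95% of all probe sets on both axes (0.24 in replicate 1, 0.14 in replicate 2). For wild type, HAT2 lies inside it on the replicate 1 axis (0.14) and above it on the replicate 2 axis (0.58).

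The replicate numbers made the largest difference for both genes. GH3.3 was higher in replicate 2 than in replicate 1 by 2.29-fold in mock-treated HY213, 9.24-fold in estradiol-treated HY213 and 7.04-fold in estradiol-treated wild type. HAT2 was higher by 1.76-fold, 1.56-fold and 2.501-fold in the same groups. For GH3.3 the fold in mock is well below that in both estradiol groups, while the folds of HAT2 have no such split. Whether the step between replicates differs between groups could not be tested, since group by replicate leaves no residual degrees of freedom.

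With group and replicate number in 1 limma model, the step from replicate 1 to replicate 2 was 1.92 ± 0.30 (SE) on the log2(value + 16) scale for GH3.3 (95% interval 1.23 to 2.61, adjusted p 0.00874) and 0.72 ± 0.14 (SE) for HAT2 (interval 0.41 to 1.03, adjusted p 0.0161). Both rose in 3 of 3 groups. They were 2 of 1471 probe sets called higher in replicate 2, 6.47% of those tested, and 11.0% were called in either direction. By size, 0.062% of probe sets had a higher step than GH3.3 and 1.87% a higher step than HAT2. The test covers these 2 replicate numbers, not replicates in general.

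The call depends on how the spread of a probe set is estimated. With a variance prior that ignores the mean level, the adjusted p was 0.140 for GH3.3 and 0.107 for HAT2. With 1 array left out, the step ranged from 1.58 to 2.47 for GH3.3 and from 0.55 to 0.83 for HAT2. Leaving out either array of a group drops the step of that group from this model. Both arrays of a group therefore give the same difference, and 1 residual degree of freedom is left. On the deposited values GH3.3 was among the 158 probe sets at least 2-fold higher in replicate 2 in all 3 groups (0.695%), and HAT2 was among the 552 at 1.5-fold (2.43%). All 3 replicate 2 arrays lay above all 3 replicate 1 arrays for both genes, as for 16.5% of all probe sets.

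Values of other marker genes are given beside this step, and their part in it was not tested. The root-hair gene EXPA7 read 23.2, 21.6 and 21.4 in replicate 1 and 16.8, 13.9 and 9.99 in replicate 2 (mock HY213, estradiol HY213 and wild type in turn), a fall of 0.37 on the log2(value + 16) scale with an adjusted p of 0.0188. PSAN, a subunit of photosystem I, was 0.48 higher in replicate 2 (adjusted p 0.0950) and LHCB4.1, an antenna protein of photosystem II, 0.25 higher (adjusted p 0.0929), and neither passed the threshold. Of 12 clock genes sought, only the clock-associated gene GI had a probe set listed for it alone. It read 71.8, 52.4 and 55.8 in replicate 1 and 68.1, 69.4 and 76.7 in replicate 2 (adjusted p 0.335). Of the touch and stress list, 2 genes were measured. STZ, a zinc-finger gene, was 1.27 higher in replicate 2 on the log2(value + 16) scale (adjusted p 0.0134), and WRKY53 read 4.81 to 5.92 on all arrays.

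The genes whose profile over the 6 arrays was nearest to that of GH3.3 were then sought among 6430 probe sets that are listed for 1 gene and lie above the highest Bacillus control on all arrays. Nearness was measured as the root-mean-square difference of log2(value + 16), after each probe set was centred on its own mean. The nearest was AT1G19020, at 0.221, followed by AT2G36220 at 0.271, AT3G04000 at 0.331, the zinc-finger gene STZ at 0.392 and AT4G20830 at 0.456. GH3.3 itself varied about its own mean by 1.16 on this measure, so the nearest profiles follow most of its course.

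AT1G19020 read 29.5, 34.7 and 36.9 in replicate 1 and 44.7, 288 and 211 in replicate 2, with the groups in the order above. STZ, a repressor gene known for its response to salt and cold, read 13.9, 18.1 and 16.8 in replicate 1 and 24.95, 80.0 and 104 in replicate 2. As for GH3.3, the estradiol arrays of replicate 2 stood far above the rest in both genes. None of these 5 is in the auxin lists described below. HAT2 stood at rank 139 in nearness to GH3.3, with a difference of 0.812.

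HAT2 had closer neighbours. AT5G11840 differed by 0.0836, IAGLU by 0.0885, AT4G19390 by 0.104, AT2G25760 by 0.104 and AT3G17770 by 0.105, beside the variation of HAT2 about its own mean of 0.406. IAGLU is annotated as an indole-3-acetate beta-D-glucosyltransferase, an enzyme that joins auxin to glucose. It read 36.5, 39.5 and 44.5 in replicate 1 and 68.4, 78.2 and 107 in replicate 2. HAT2 read 34.9, 44.3 and 40.0, and 61.4, 69.2 and 100.1. The likeness of these profiles follows the step between replicates, which many probe sets share.

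**Figure D4:**
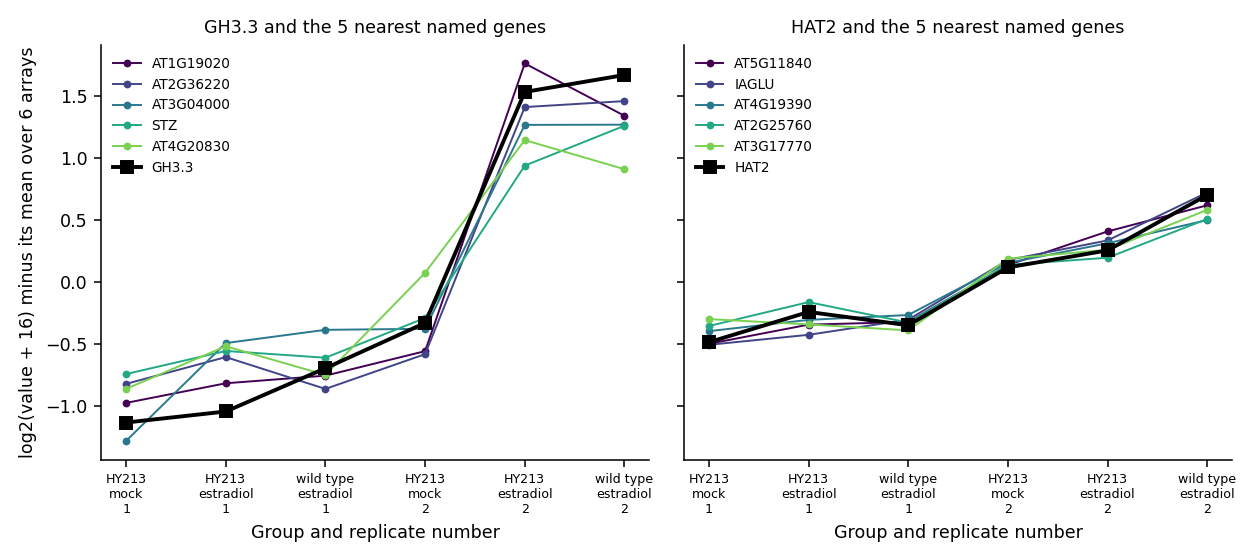
log2(value + 16) minus its mean over the 6 arrays for GH3.3 and HAT2 (black) and for the 5 named genes nearest to each, by group and replicate number. GH3.3 and its neighbours step up at the estradiol arrays of replicate 2, whereas HAT2 and its neighbours rise by a smaller step at all 3 arrays of replicate 2.

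The other auxin genes give the setting in which both stand. Of 158 genes in 9 auxin lists, 19 have a probe set listed for them alone, GH3.3 and HAT2 included. The response factor, receptor, transport and SAUR lists had no such gene, and the class II homeodomain-leucine zipper list had HAT2 alone. The annotation lists no gene for 8730 of the tested probe sets and several genes for 503. A gene missing here can thus be unlisted in the annotation while the array still holds a probe set for it. Of the 19 genes, 6 read above the Bacillus controls on all arrays: GH3.3, GH3.5, GH3.17, HAT2, IAA18 and LBD16. The others lay near background, so their directions carry little weight. LBD16 was close to background too, at 6.13 to 6.40 in replicate 2 beside controls of 5.14 to 5.31.

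Against mock, estradiol-treated HY213 read higher within both replicates in 11 of the 19 genes, beside 25.6% of all probe sets, and lower in 4. The median log2(value + 16) difference was 0.0029 beside -0.0004 over all probe sets. Estradiol-treated wild type read higher than mock in 8, beside 24.0% of all probe sets, and lower in 4 (median 0.0080 beside 0.0002). Under estradiol, HY213 read higher than wild type in 4 and lower in 7, beside 25.4% of all probe sets lower (median 0.0024 beside 0.0005). These counts include GH3.3 and HAT2 themselves, and 13 of the 19 genes were not above the Bacillus controls on all arrays. Without GH3.3 and HAT2, HY213 read higher than mock in 9 of 17 genes (median 0.0005) and wild type in 6 (median 0.0062). HY213 then read lower than wild type in 6 (median 0.0025). The share over all probe sets was not counted for the opposite directions, so the counts of 4 have no background to be read against. No gene of the 19 passed the adjusted p in any of these comparisons, with or without the replicate block.

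Of the GH3 family, 5 of 11 genes were measured. GH3.17, whose enzyme joins auxin to glutamate, read 15.8, 18.6 and 24.3 in replicate 1 and 7.41, 12.2 and 14.4 in replicate 2. Within each replicate it kept the order of GH3.3, mock below estradiol HY213 below wild type, but it fell by 0.38 on the log2(value + 16) scale from replicate 1 to replicate 2 (adjusted p 0.00945) where GH3.3 rose. GH3.5, whose enzyme acts on auxin and on salicylic acid, read 95.4, 98.1 and 90.5, and 68.3, 90.3 and 104. Its values overlapped between the replicates (adjusted p 0.669). The remaining GH3.1 and GH3.9 read 4.24 to 6.5 on all arrays.

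Of the Aux/IAA repressor genes, 7 of 29 were measured, and IAA18 alone was above background on all arrays. It read 60.5, 66.5 and 89.4 in replicate 1 and 68.3, 80.8 and 88.4 in replicate 2, so the step of GH3.3 and HAT2 was not called in it (0.12, adjusted p 0.565). IAA29 read 5.13 to 6.59 and IAA34 5.17 to 6.32. The lateral-organ-boundary gene LBD16, which acts in lateral root formation, read 7.49, 8.84 and 7.93, and 6.29, 6.40 and 6.13 (adjusted p 0.0548 for the replicate step). LBD29 read 4.14 to 5.51. The biosynthesis genes YUC2, YUC11 and YUC4, of a flavin monooxygenase family, read 4.15 to 5.67.

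The order mock below estradiol HY213 below estradiol wild type, within both replicates, was seen in 5 of the 19 auxin genes and in 3.07% of all probe sets. These were GH3.3, GH3.17 and IAA18, above the Bacillus controls on all arrays, and GH3.9 and IAA33, which were not. The share of 3.07% includes dim probe sets, so it is no background for the 3 brighter genes alone. This order was noticed after the values were seen. For the replicate step, 4 of the 19 auxin genes were called, GH3.3 and HAT2 higher and GH3.17 and IAA29 lower, beside 11.0% of all probe sets. Without GH3.3 and HAT2 the calls were 2 of 17, near that share. IAA29 was above the Bacillus controls on only 4 arrays. The median step of the 19 genes was -0.0092, beside -0.0066 over all probe sets.

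**Figure D5:**
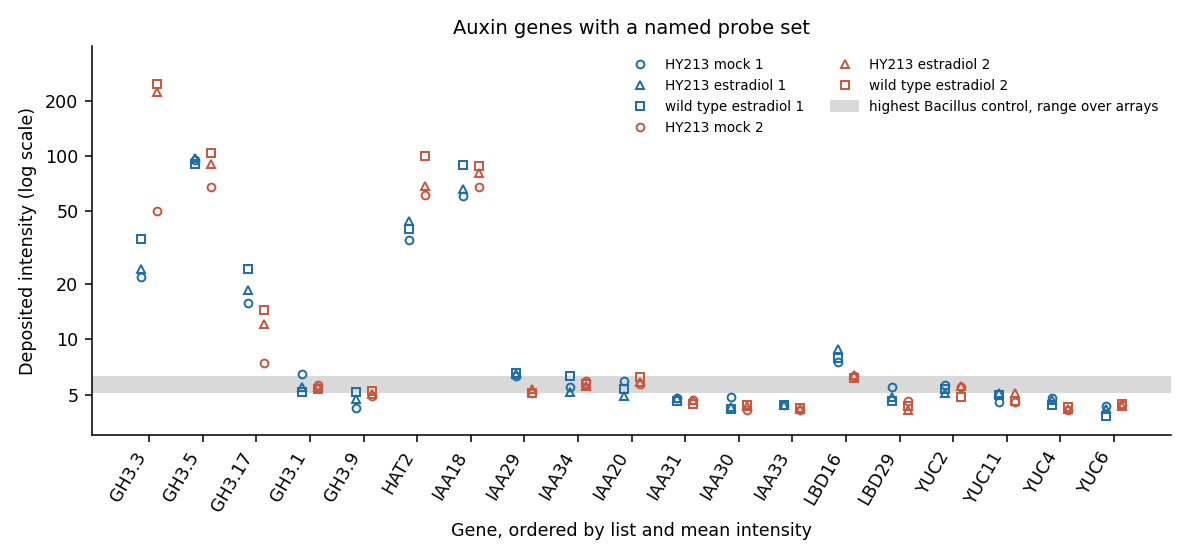
Deposited intensity (log axis) of the 19 measured auxin genes, ordered by list and mean intensity, with replicate 1 in blue, replicate 2 in red, symbols for the groups and a grey band for the highest Bacillus controls. GH3.3 spans the widest range on this axis, HAT2 separates by replicate, and 13 of the 19 genes are at or under the highest Bacillus control of at least 1 array.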

How the data were processed

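Per the labels' protocols, biotin-labelled total RNA of the 6 samples went onto Affymetrix arrays. The authors deposited 1 table of intensity values on a linear scale. MAS5 and RMA are both named in the submitters' processing notes, but which of them made the table, and with what scaling, is not stated there. Groups and replicate numbers come from the sample titles. The 64 control probe sets were left out, which leaves 22746, of which platform annotation lists 13513 for 1 gene. Symbols were updated through RefSeq (TAIR10.1), and 13436 matched. No genome or sequence table was used, so no coordinate or sequence is printed and the motif search was not run.

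On log2(value + 16), limma 3.58.1 (R 4.3.3) was run over the 3 groups, its eBayes step with a mean-variance trend, with Benjamini-Hochberg adjustment over all probe sets at 0.05. The limma script was tested on simulated data with known differences. Precision is limited by the number of arrays, which leaves 3 residual degrees of freedom (2 with the block). For 2 against 2 arrays the smallest two-sided p of an exact permutation test is 0.333. Same-numbered arrays deviated together from their group means (r of 0.693, 0.665 and 0.822, across probe sets). The design text speaks of 2 replicates with independent pools of samples. The replicate number was therefore treated as a batch, which the labels do not name, and blocked values are given. The unblocked model counts the step between replicates as spread, which widens its intervals for both genes.

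Other genes were named by rule: up to 3 per list with the highest mean intensity, and the 5 nearest profiles to each gene. A root-mean-square difference is printed for these and no correlation. The arrays cluster by replicate, and the step between replicates enters this measure too. HAT3.1, a homeodomain gene of another class, was kept out of the HAT2 list. Genes and lists were chosen with earlier results of these data known. Alternatives were pseudocounts of 1 and 64, median and quantile normalization, leaving out the dimmest 25% of probe sets, a variance prior without trend, only the 4 arrays compared, the replicate block and each array left out. Blocked fits with another pseudocount or quantile normalization were added after the data were seen.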

Additional observations from a re-analysis of the deposited data

How the results depend on the processing

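With 1 array left out, where a lone array is assumed to vary like the other groups, the log2(value + 16) difference for estradiol against mock ranged from -0.31 to 2.27 for GH3.3 and from -0.11 to 0.49 for HAT2. For estradiol HY213 against wild type it ranged from -1.53 to 1.05 and from -0.70 to 0.36, for wild type against mock from 0.036 to 2.403 and from -0.17 to 0.89, and for the replicate step from 1.58 to 2.47 and from 0.55 to 0.83. For the group differences, leaving an array out unbalances the groups over the replicates, so the step between them enters. For the replicate step, it drops the step of that group, and without either wild-type array HAT2 (0.55) was no longer past the threshold. Calls over all probe sets then numbered 0 to 13, 0 to 16, 0 and 637 to 4062 in the same order. In all other alternatives run, blocked fits included, each group difference of both genes kept its direction and none passed (adjusted p 0.846 to 1). The replicate block left the differences of GH3.3 at 0.98, -0.24 and 1.22 and changed no call. With a pseudocount of 1 it called 1 probe set in each comparison that holds estradiol-treated HY213. A prior without trend left the replicate step of GH3.3 at 1.92 and of HAT2 at 0.72, both no longer past the threshold, and called 431 probe sets. Probe sets 1.5-fold higher within both replicates numbered 33, 26 and 37 on deposited values, 9, 3 and 5 at 2-fold, and 16, 7 and 10 with 16 added. Those 2-fold higher in replicate 2 in all groups numbered 158, with 552 at 1.5-fold and 62 with 16 added. Signal over background does not limit GH3.3 or HAT2, but it does limit 13 of the 19 auxin genes.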
